A study of Mus musculus with 8 samples.

Results

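The 35 genes described here encode proteins that write, erase or read small chemical marks on histones and DNA: 11 zinc-dependent histone deacetylases, 7 NAD-dependent sirtuins, 3 DNA methyltransferases, 3 TET dioxygenases, 9 lysine acetyltransferases and the 2 BET bromodomain proteins Brd2 and Brd3. They were chosen by name, with earlier results of these data known, and all 35 were found among the 56832 rows of the deposited gene table. The table comes from RNA-seq of microglia, the resident macrophages of the brain, isolated by flow-cytometric sorting from the brains of 5xFAD mice, which were male and young adult. This transgenic line makes mutant human amyloid precursor protein and presenilin in neurons and forms amyloid plaques. Both groups carried the transgenes. The ethanol group (4 libraries) received 3 g/kg of ethanol as a 20% solution by intraperitoneal injection on 5 days a week for 4 weeks and then 2 weeks of withdrawal. The saline group (4 libraries) received saline on the same schedule, and the question was whether ethanol changed the microglial transcriptome. Libraries are called saline 1 to 4 and ethanol 1 to 4 after their sample numbers.

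Acetyltransferases move the acetyl group of acetyl-CoA onto lysines of histone tails, which loosens chromatin and makes docking sites for bromodomain proteins. Deacetylases of the zinc-dependent classes remove these groups by hydrolysis, and sirtuins remove acyl groups while consuming NAD. DNA methyltransferases add methyl groups to cytosines from S-adenosylmethionine, and TET enzymes oxidise methylcytosine as a step toward its removal. In microglia, deacetylases and DNA methylation enzymes are known to shape inflammatory gene programmes, and acetate from ethanol breakdown is a known source of acetyl-CoA for histone acetylation in the brain. Transcript levels measure neither the enzymes' activity nor the marks themselves.

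Gene-assigned reads numbered 14271351 to 17231301 per library, and the values are these counts after division by the size factor of the library (normalized counts). Microglial markers (10 genes, among them P2ry12 and Tmem119) made up 4.77 to 5.05% of the normalized total in saline and 5.02 to 5.23% in ethanol libraries. Markers of other cells were scarce, with neutrophil markers at 0.0164 to 0.0935% in any library, astrocyte markers at no more than 0.0593%, oligodendrocyte lineage markers at no more than 0.0213% and border macrophage markers at no more than 0.0158%. Monocyte, lymphocyte, endothelial and mural, and neuron markers reached at most 0.00727%, 0.00661%, 0.00343% and 0.00195%, and the lymphocyte genes Cd3e, Cd3d, Ms4a1 and Ncr1 were at 0. On the first principal component of all tested genes (20.1% of the variance), samples 1 and 2 of both groups lay between -31.4 and -13.9 and samples 3 and 4 between 4.58 and 60.7, with ethanol 4 farthest out. The labels do not say that each library came from its own mouse, so p-values rest on library-to-library spread only, which may be technical in part. In bulk libraries, fewer cells of a type and less RNA per cell cannot be told apart.

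Promoter sequence was looked at first, because CpG-rich promoters are typical of widely expressed genes and because the proteins of 6 of these genes act on CpG sites themselves. RefSeq promoter windows (mouse build GRCm38.p6, 250 bases before to 50 after each annotated start) were matched by symbol for 31 of the 35 genes, which together had 47 windows. Hdac1, Hdac3, Hdac10 and Kat6a had no entry. The windows of the set held a median of 20 CpG dinucleotides, against 7 over all 32851 windows of the table. At least 17 CpG were present in 66.0% of the set's windows and in 31.4% of all windows. All windows belong to 27025 genes, more than the 14428 tested here, so the contrast is not with expressed genes alone. Shown are the 250 bases before the start, on the strand of the gene and with every CG in capitals, of the window richest in CpG, of the window with the fewest and of the gene with the smallest p-value in the ethanol comparison. None of these 3 stretches holds an annotated exon.
Tet2 (chr3:133544391-133544640, minus strand, 51 CpG, 83.6% G or C): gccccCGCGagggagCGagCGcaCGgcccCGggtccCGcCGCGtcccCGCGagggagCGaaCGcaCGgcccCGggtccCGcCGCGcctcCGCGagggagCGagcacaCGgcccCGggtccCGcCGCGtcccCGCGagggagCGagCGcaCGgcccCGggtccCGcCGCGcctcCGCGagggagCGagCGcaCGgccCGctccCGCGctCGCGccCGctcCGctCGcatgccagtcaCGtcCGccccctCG
Hdac9 (chr12:34917096-34917345, minus strand, 0 CpG, 44.4% G or C): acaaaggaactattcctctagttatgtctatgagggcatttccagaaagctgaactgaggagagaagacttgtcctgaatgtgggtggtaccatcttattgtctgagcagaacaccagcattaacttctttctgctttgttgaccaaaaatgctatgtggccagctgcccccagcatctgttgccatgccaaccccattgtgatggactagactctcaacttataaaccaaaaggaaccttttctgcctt
Kat2a (chr11:100712468-100712717, minus strand, 11 CpG, 48.8% G or C): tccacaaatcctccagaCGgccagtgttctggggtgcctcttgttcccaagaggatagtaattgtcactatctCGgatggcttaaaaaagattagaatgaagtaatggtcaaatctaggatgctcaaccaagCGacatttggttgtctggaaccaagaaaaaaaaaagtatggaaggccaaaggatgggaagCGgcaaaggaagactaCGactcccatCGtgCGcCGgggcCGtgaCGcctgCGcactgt
The Tet2 stretch repeats the same CG-rich block several times, whereas the Hdac9 start shown is 1 of 2 annotated for that gene and carries no CG at all. Both genes were expressed in all 8 libraries.

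Short motifs were searched on both strands of the same windows, as letters only. The SP/KLF box GGGCGG was present in 63.8% of the set's windows and 35.7% of all windows. The NRF1 core CGCATGCG was present in 10.6% (only 5 of 47 windows) against 1.9%, in windows of Sirt6, Sirt7, Dnmt1 and Brd2. The E-box CACGTG was found in 8.5% against 7.2%, the PU.1-type box GAGGAAGT in 2.1% (Kat2b) against 3.2%, and the cyclic AMP response element TGACGTCA in 0% against 1.8%. None of these 5 motifs contains another, and all but the PU.1-type box contain CG themselves. A match is a description of the letters and no evidence of binding. The background is again all windows, those of untested genes among them.

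All 35 genes were detected in every library, and each passed the minimum mean of 10 normalized counts used for testing. Per kb of the longest annotated transcript, which allows levels of different genes to be compared, they spanned from 4.96 normalized counts (Hdac7) to 969 (Sirt7). Their median was 161 per kb, next to 156 per kb over the 11328 tested genes with a known length, and 19 of the 35 lay above that median of all genes. Sirt7, Sirt2 and Brd2 stood highest among tested genes, at percentiles 90.2, 90.1 and 88.2, and Hdac7, Tet1 and Dnmt3b lowest, at percentiles 3.9, 8.2 and 13.9. Each of the role groups described below had at least 1 gene above that median and 1 below it.

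**Figure D1:**
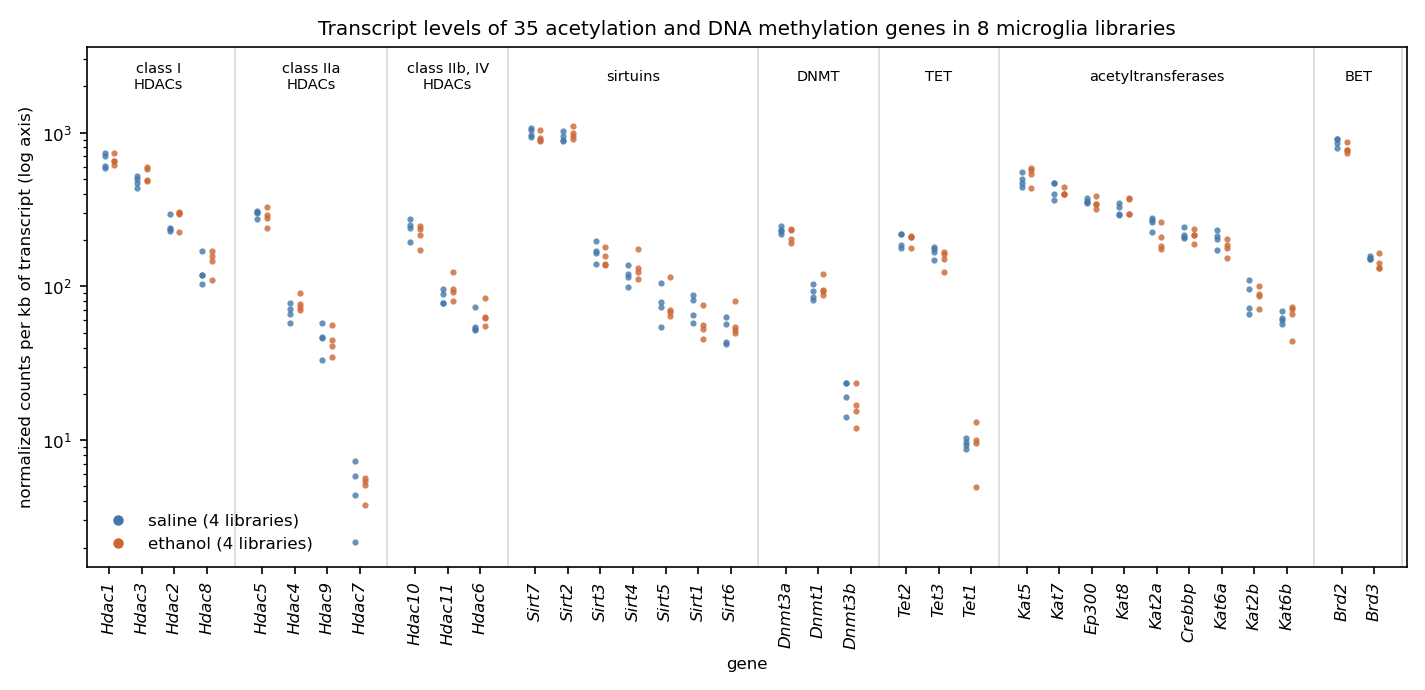
Normalized counts per kb of transcript (log axis) for each of the 35 genes, grouped by role and ordered by level within a role; each point is 1 library, saline in blue and ethanol in orange. Sirt7, Sirt2 and Brd2 sit at the top, Hdac7 and Tet1 at the bottom, and the points of both groups overlap for every gene.

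Ethanol-treated and saline-treated microglia had overlapping levels of all 35 transcripts, and none passed the test. Kat2a, which encodes the acetyltransferase of the SAGA and ATAC complexes, had the smallest p-value and was lower in ethanol by a fold of 0.790 (95% interval 0.650 to 0.961). In 33 of the 35 genes the estimated fold lay between 0.8 and 1.25. Positive log2 fold changes were found for 18 genes and negative ones for 17, with a median of 0.01, against -0.01 over all 14428 tested genes. With limma, 0 of the 35 genes passed a Benjamini-Hochberg threshold of 0.05, and the share of all tested genes that did was also 0%. Adjusted p-values were 0.997 for each of the 35. At an unadjusted p under 0.05, 0 of the 35 were higher in ethanol, where 1.7% of all genes were, and 1 was lower (Kat2a, 2.86% of the set), where 1.93% of all genes were. The ethanol libraries lay entirely above the saline libraries for 0 of the 35 genes (1.12% of all genes) and entirely below them for 0 (1.2% of all genes). On the recovered reads, edgeR and DESeq2 also called 0 genes after adjustment. At an unadjusted p under 0.05 edgeR gave 495 and DESeq2 558 of 14428 genes, Kat2a being the only one of the 35 in either. Without ethanol 4, the library farthest out on the first principal component, 0 of the 35 passed the adjustment in limma and Kat2a was again the only one with an unadjusted p under 0.05.

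The intervals show which changes the data could have missed. The 95% interval of the fold lay inside 1.5-fold in either direction for 28 of the 35 genes, or 80.0%, against 56.3% of all tested genes, and inside 2-fold for 34, or 97.1%, against 73.2%. A change as small as 1.25-fold was outside the interval for 10 of the 35, or 28.6%, against 24.4% of all tested genes. The 7 genes whose interval reached 1.5-fold were Hdac8, Hdac7, Sirt1, Sirt6, Dnmt3b, Tet1 and Kat2a, and Hdac7 was the one that reached 2-fold. Over the 8 libraries the median coefficient of variation of the set was 13.1%, while counting error alone would give 4.1%.

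**Figure D2:**
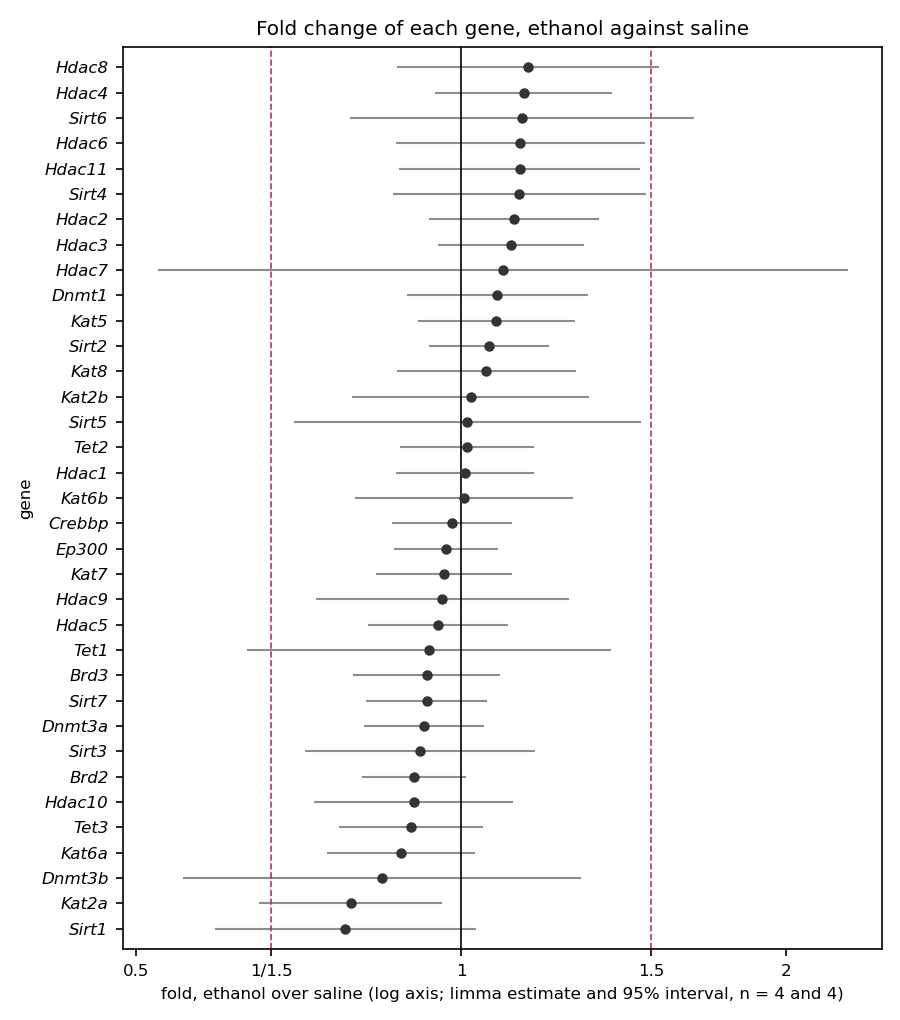
Fold of each gene in ethanol over saline (log axis) with the 95% interval from limma (4 libraries a group), ordered by fold; dashed lines mark 1.5-fold in either direction. Sirt1 (0.781) and Kat2a (0.790) are lowest, Kat2a is the gene whose interval leaves out 1, and the Hdac7 interval is the widest.

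Class I deacetylases are the nuclear enzymes that serve as catalytic subunits of corepressor complexes. Hdac1, which works in the Sin3, NuRD and CoREST complexes, was the most abundant of the 4 at 662 normalized counts per kb, and Hdac8, which acts outside these complexes, the least at 137. Hdac3, the enzyme of the NCoR complexes, had 509.6 per kb and Hdac2, the close relative of Hdac1, 266 per kb. The ranges over the 8 libraries of Hdac1 (589 to 733 per kb) and Hdac3 (433 to 593) touched, while those of Hdac2 (226 to 304) and Hdac8 (103 to 170.0) lay apart from each other and from the other two. Hdac1 had 1200.2, 1240.0, 1441 and 1494 normalized counts in saline 1 to 4 and 1325, 1250.2, 1341 and 1493 in ethanol 1 to 4. The ethanol values lay within the saline range. Hdac8 had 230.2, 229, 328 and 199 normalized counts in saline 1 to 4 and 329, 214, 306 and 284 in ethanol 1 to 4. In each group the highest library stood well above the lowest, and the groups overlapped.

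In ethanol, all 4 class I estimates lay above 1, with a median log2 fold change of 0.16 and none past the test. Hdac3 had 879, 1062, 1016 and 959 normalized counts in saline 1 to 4 and 1176, 1205, 983 and 1003 in ethanol 1 to 4. Ethanol 1 and 2 were above every saline library, and ethanol 3 and 4 fell within the saline range. The fold of Hdac3 was 1.11 (95% interval 0.953 to 1.30) with a limma p of 0.164 before adjustment. Hdac2 had 774, 965, 747 and 772 normalized counts in saline 1 to 4 and 967, 967, 733 and 987 in ethanol 1 to 4. Hdac2 thus took 1 of 2 levels, with saline 1, saline 3, saline 4 and ethanol 3 at 733 to 774 and the remaining 4 libraries at 965 to 987, a split that crosses the groups. Of the latter, saline 2, ethanol 1 and ethanol 2 are the 3 libraries that carry the number 165 in their names. The fold of Hdac2 was 1.12 (95% interval 0.933 to 1.34), with an unadjusted limma p of 0.207. Without ethanol 3, the lowest ethanol library, it was 1.20 (unadjusted p 0.0361 in limma). Leaving out any other single library gave folds of 1.09 to 1.19 (unadjusted limma p 0.0732 to 0.38). With the library-name number as a covariate the fold was 1.09. The fold was 1.01 for Hdac1 and 1.15 (0.872 to 1.53) for Hdac8.

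Class IIa deacetylases have little catalytic activity of their own and repress transcription by binding MEF2 factors and recruiting the Hdac3 complex. Hdac5 was by far the most abundant of them at 291 normalized counts per kb, followed by Hdac4 at 73.1 and Hdac9 at 45.2, with Hdac7 at 4.96. Hdac5 had 1479, 1456, 1504 and 1329.9 normalized counts in saline 1 to 4 and 1352, 1583, 1158 and 1422 in ethanol 1 to 4. The ethanol libraries included both the highest and the lowest value, and the fold was 0.951 (0.819 to 1.10). Hdac7 had 18.5, 30.9, 9.17 and 24.5 normalized counts in saline 1 to 4 and 22.8, 24.1, 16.0 and 21.6 in ethanol 1 to 4. Saline 3 was the lowest library and saline 2 the highest, a 3.37-fold range that rests on as few as 9 reads. The fold of Hdac7 was 1.09 with an interval of 0.523 to 2.28, wide enough to hold a 2-fold higher level.

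Hdac4 had the smallest p-value of the genes with a higher estimate in ethanol. Hdac4 had 629.7, 579, 535 and 467 normalized counts in saline 1 to 4 and 733, 571, 597 and 623 in ethanol 1 to 4. Ethanol 1 was above every saline library, the other ethanol libraries fell within the saline range, and saline 3 and 4 were the lowest of all 8. The fold of Hdac4 was 1.14 (95% interval 0.946 to 1.38) with a limma p of 0.154 before adjustment. Hdac9, whose CpG-free start is shown above, ranged from 265 to 459.8 normalized counts over both groups and had a fold of 0.961 (0.734 to 1.26).

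Class IIb deacetylases act largely in the cytoplasm and are described together with the single class IV enzyme. Hdac10, a polyamine deacetylase, was the most abundant at 228 normalized counts per kb, the class IV enzyme Hdac11, which removes long fatty acyl groups, had 91.6, and Hdac6, the tubulin deacetylase, had 62.1. Hdac10 had 579, 660.1, 466 and 603 normalized counts in saline 1 to 4 and 566, 591, 413 and 517 in ethanol 1 to 4. Ethanol 3 was the lowest and saline 2 the highest, and the groups overlapped (fold 0.903, 0.730 to 1.12). Hdac6 had 226, 214, 217 and 305 normalized counts in saline 1 to 4 and 256, 349, 228 and 261 in ethanol 1 to 4. Saline 4 and ethanol 2 stood above the other 6 libraries, 1 in each group, and the fold was 1.13 (0.869 to 1.48). Hdac11 ranged from 206 to 328 normalized counts with ethanol 4 highest and had a fold of 1.13 (0.876 to 1.47). Of the annotated exon bases of Hdac11, 25.0% are shared with genes on the opposite strand, and the library kit does not mark strand, so its value is less certain.

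Sirtuins spread over the nucleus, the cytosol and the mitochondrion. Sirt7, the nucleolar sirtuin, and Sirt2, the cytosolic tubulin deacetylase, were the most abundant genes of the whole set at 969 and 962 normalized counts per kb, and their ranges (880.3 to 1066 and 876 to 1103) overlapped almost fully. The 3 mitochondrial sirtuins were lower. Sirt3, the main mitochondrial deacetylase, had 161 per kb, Sirt4 had 127 and the desuccinylase Sirt5 had 78.7. The chromatin deacetylases Sirt1 and Sirt6 had 65.2 and 55.4 per kb, and the ranges of Sirt1, Sirt5 and Sirt6 overlapped. Per kb of all annotated exon bases the order of these 3 was different, at 65.2 for Sirt1, 47.9 for Sirt5 and 45.1 for Sirt6. For Sirt3, 32.8% of annotated exon bases overlap Ric8a and Psmd13 on the opposite strand, and its value is uncertain to that extent.

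Sirt1, the nuclear deacetylase of p53, NF-kB and other transcription factors, had the lowest fold of the set. Sirt1 had 288, 363, 254 and 392 normalized counts in saline 1 to 4 and 247, 333, 234 and 201 in ethanol 1 to 4. Ethanol 1, 3 and 4 were below every saline library, while ethanol 2 was above saline 1 and saline 3. Means were 324 ± 64.1 in the saline group and 253 ± 56.4 in the ethanol group (normalized counts, SD, n = 4), a fold of 0.781 (95% interval 0.592 to 1.03) with a limma p of 0.0780 before adjustment. Leaving out ethanol 2, the highest ethanol library, or saline 3, the lowest saline library, lowers the fold by construction. The folds were then 0.709 (unadjusted limma p 0.0211) and 0.724 (p 0.0307 in limma). Leaving out ethanol 4, the lowest ethanol library, gave a fold of 0.839 (p 0.218 in limma). Sirt7 had 1801, 1841, 1676 and 1619 normalized counts in saline 1 to 4 and 1593, 1794, 1520.2 and 1542 in ethanol 1 to 4. Ethanol 1, 3 and 4 were again below every saline library and ethanol 2 was within their range, but the fold of 0.929 (0.816 to 1.06) was closer to 1. Sirt6 had 120.2, 80.1, 82.6 and 108 normalized counts in saline 1 to 4 and 94.5, 103, 98.3 and 151 in ethanol 1 to 4. Ethanol 4 was the highest library by a clear margin, and the fold was 1.14 (0.789 to 1.64). The other sirtuins had folds of 1.06 for Sirt2 (0.934 to 1.21), 0.916 for Sirt3 (0.717 to 1.17), 1.13 for Sirt4 (0.864 to 1.48) and 1.01 for Sirt5 (0.700 to 1.47). The median log2 fold change of the 7 sirtuins was 0.02.

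**Figure D3:**
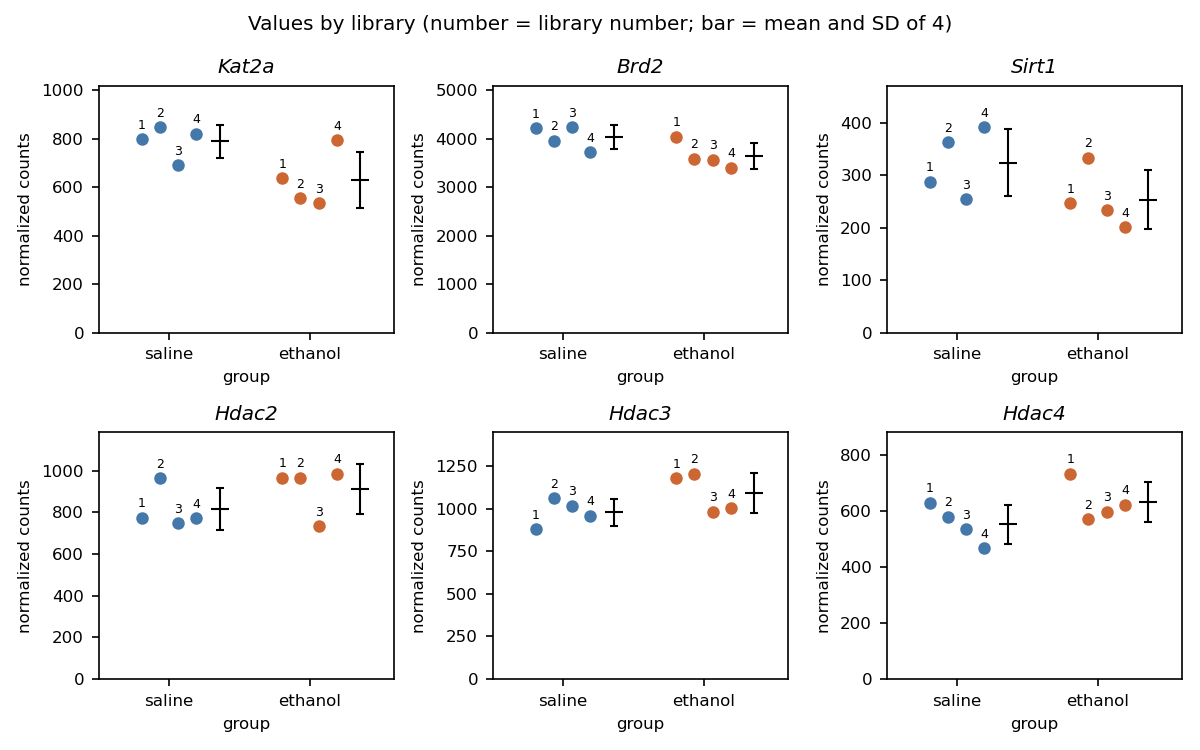
Normalized counts by library for the 3 genes with the smallest p-value on the lower side (top row) and on the higher side (bottom row); points are numbered by library, and the bar is the mean with the SD of 4. In each of the 3 upper panels a single ethanol library (ethanol 4 for Kat2a at 792, ethanol 1 for Brd2 at 4040, ethanol 2 for Sirt1 at 333) lies within the saline range.

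DNA methyltransferases were led by Dnmt3a, an enzyme that methylates unmarked CpG sites, at 223 normalized counts per kb. Dnmt1, which copies methylation onto the new strand after replication, had 94.9, and Dnmt3b, the second de novo enzyme, had 18.5. The ranges of the 3 genes over the 8 libraries did not touch (191 to 247, 82.0 to 119.5 and 12.1 to 23.7 per kb). Dnmt3a had 2389, 2254, 2106 and 2232 normalized counts in saline 1 to 4 and 2236, 2273, 1966 and 1847 in ethanol 1 to 4. Ethanol 3 and 4 were the lowest libraries and ethanol 1 and 2 fell within the saline range, for a fold of 0.924 (0.812 to 1.05). Dnmt3b had 102, 60.8, 82.6 and 101 normalized counts in saline 1 to 4 and 72.8, 102, 52.1 and 66.9 in ethanol 1 to 4. Both groups covered nearly the same span, and the fold was 0.845 (0.552 to 1.29). Dnmt1 ranged from 481 to 702 normalized counts, highest in ethanol 4, with a fold of 1.08 (0.890 to 1.31). Because Dnmt1 is tied to DNA replication, the proliferation markers (10 genes, among them Mki67 and Top2a) are given beside it. They made up 0.00501 to 0.00585% of the normalized total in saline and 0.0043 to 0.00486% in ethanol libraries and did not overlap (exact permutation p 0.0286, the smallest that 4 against 4 libraries allow, and 0.285 adjusted over 10 marker lists). Their part in the Dnmt1 values was not tested.

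TET dioxygenases were represented by Tet2 and Tet3, with Tet1 close to the floor of the set. Tet2 had 201 normalized counts per kb, Tet3 159 and Tet1 9.49, and the ranges of Tet2 (176 to 220.3) and Tet3 (123 to 180.2) overlapped slightly. Tet2 had 1711, 2022, 1619 and 2005 normalized counts in saline 1 to 4 and 1935, 1922, 1950.5 and 1631 in ethanol 1 to 4. Every ethanol value lay within the saline range, and ethanol 4 was well below the other 3 ethanol libraries. The fold of Tet2 was 1.01 (0.878 to 1.17). Tet1 had 141, 149, 134 and 126 normalized counts in saline 1 to 4 and 144, 71.2, 189.5 and 137 in ethanol 1 to 4. The saline libraries lay close together, whereas ethanol 2 was the lowest and ethanol 3 the highest of all 8. Tet1 had a fold of 0.934 (0.633 to 1.38). Tet3 ranged from 1343 to 1964 normalized counts, lowest in ethanol 4, and had a fold of 0.899 (0.771 to 1.05).

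Among the acetyltransferases, Kat5, the catalytic subunit of the NuA4/TIP60 complex, was the most abundant at 512 normalized counts per kb. Kat7, the enzyme of the HBO1 complexes, followed at 417, then the enhancer coactivator Ep300 at 353 and Kat8, which acetylates histone H4 in the MSL and NSL complexes, at 325. Kat2a (233), Crebbp (216), the paralog of Ep300, and Kat6a (192) formed a middle tier with overlapping ranges. Kat2b, the paralog of Kat2a, had 86.5 and Kat6b, the paralog of Kat6a, 63.0. Kat5 had 949, 1079, 1014 and 1201 normalized counts in saline 1 to 4 and 935, 1153, 1272 and 1228 in ethanol 1 to 4. The groups overlapped, with a fold of 1.08 (0.911 to 1.27), and 18.0% of the annotated exon bases of Kat5 overlap Rnaseh2c on the opposite strand. Kat6b had 529.8, 465, 440.4 and 481 normalized counts in saline 1 to 4 and 508, 551, 566 and 337 in ethanol 1 to 4. Ethanol 4 was far below the other 7 libraries while ethanol 2 and 3 were the highest, and the fold was 1.01 (0.797 to 1.27).

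Kat2a was the single gene of the set with an unadjusted p under 0.05. Kat2a had 797, 847, 691 and 820.3 normalized counts in saline 1 to 4 and 637, 553, 534 and 792 in ethanol 1 to 4. Ethanol 1, 2 and 3 were below every saline library, and ethanol 4 lay within the saline range. Means were 789 ± 68.3 in the saline group and 629 ± 117 in the ethanol group (normalized counts, SD, n = 4), a fold of 0.790 (95% interval 0.650 to 0.961) with a limma p of 0.0211 before and 0.997 after Benjamini-Hochberg adjustment. Within library-name number 163 the value was 691 in saline and 534 in ethanol, within number 165 it was 847 in saline and 637 and 553 in ethanol, and within number 164 it was 797 and 820.3 in saline and 792 in ethanol. With that number as a covariate the fold was 0.813 (unadjusted limma p 0.027). Leaving out ethanol 4, the highest ethanol library, lowers the fold by construction and gave 0.729 (p 0.00234 in limma, unadjusted). Leaving out saline 2, ethanol 2 or ethanol 3 raised the unadjusted limma p to 0.0586, 0.0675 and 0.068.

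Of the other acetyltransferases, Kat6a had a fold of 0.880 (0.752 to 1.03), Kat7 0.964 (0.834 to 1.11), Ep300 0.968 (0.866 to 1.08), Crebbp 0.980 (0.862 to 1.11), Kat2b 1.02 (0.793 to 1.31) and Kat8 1.06 (0.871 to 1.28). Ep300, with values from 3035 to 3703 normalized counts, had the lowest coefficient of variation of the 35 genes at 6.01%, and its interval left out a change of 1.25-fold in either direction. Its paralog Crebbp ranged from 2049.7 to 2614. The median log2 fold change of the 9 acetyltransferases was -0.03.

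BET proteins bind acetylated histone tails through paired bromodomains and recruit the elongation machinery. Brd2 was the third most abundant gene of the set at 825 normalized counts per kb and Brd3 had 147. Brd2 had 4214, 3962, 4242 and 3719.8 normalized counts in saline 1 to 4 and 4040.1, 3592, 3567 and 3403 in ethanol 1 to 4. Ethanol 2, 3 and 4 were below every saline library, and ethanol 1 lay within the saline range. Means were 4034 ± 244 in the saline group and 3650.5 ± 273 in the ethanol group (normalized counts, SD, n = 4), a fold of 0.904 (95% interval 0.809 to 1.01) with a limma p of 0.0749 before adjustment. Leaving out ethanol 1, the highest ethanol library, or saline 4, the lowest saline library, lowers the fold by construction. The folds were then 0.874 and 0.881 (unadjusted limma p 0.0246 and 0.0419). Without ethanol 4, the lowest ethanol library, the fold was 0.925 (p 0.184 in limma). Part of the annotated Brd2 exons (11.8% of bases) overlaps H2-DMa and CR974462.3 on the opposite strand. Brd3 had 828, 849, 817 and 811 normalized counts in saline 1 to 4 and 773, 709.8, 713 and 887 in ethanol 1 to 4. The saline values lay within a narrow band, with ethanol 1, 2 and 3 below it and ethanol 4 above it, and the fold was 0.929 (0.795 to 1.09). Both BET genes had a negative estimate, with a median log2 fold change of -0.13.

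Partners and cofactor suppliers of these enzymes were read from 7 lists with 147 tested genes, of which 0 passed the adjusted threshold in limma. At an unadjusted p under 0.05, 0 were higher in ethanol (1.7% of all genes) and 8 were lower, or 5.44% (1.93% of all genes). These 8 came from the lists of corepressor complexes, acetyltransferase complexes, acetyl-lysine readers and DNA methylation readers. The groups did not overlap, in either direction, for 2 genes in each of the corepressor, acetyltransferase complex and acetyl-lysine reader lists. For the DNA methylation reader, NAD and S-adenosylmethionine lists the number was 1 each, and for acetyl-CoA supply it was 0. Over all tested genes, ethanol lay entirely above saline for 1.12% and entirely below for 1.2%. The lists were made with results of these data known, and these counts and shares are a description.

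In the deacetylase corepressor list (31 of 32 genes tested), 0 genes were higher and 2 lower at the unadjusted threshold, and the median log2 fold change was -0.01. Gatad2b, a NuRD subunit, had 1187 ± 67.6 in the saline group and 969.9 ± 89.6 in the ethanol group (normalized counts, SD, n = 4), a fold of 0.816 (95% interval 0.704 to 0.944) with an unadjusted limma p of 0.00944, and its groups did not overlap. On the other side, the histone chaperone gene Rbbp7 had a fold of 1.08 (95% interval 0.954 to 1.23). In the list of acetyltransferase complexes (41 of 41 tested), 0 were higher and 3 lower, with a median of -0.06. Jade3, a scaffold of the HBO1 complexes that hold Kat7, had 205, 182, 147 and 198 normalized counts in saline 1 to 4 and 137, 120.3, 108 and 78.2 in ethanol 1 to 4. Each ethanol library was below each saline library, for a fold of 0.601 (95% interval 0.432 to 0.834) with a limma p of 0.00456 before and 0.997 after adjustment. The nuclear receptor coactivator gene Ncoa1 had the smallest p on the higher side, with a fold of 1.14 (95% interval 0.966 to 1.34).

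Acetyl-lysine readers other than Brd2 and Brd3 (22 of 22 tested) had 0 genes higher and 1 lower, and the median log2 fold change was -0.05. That gene was Brd9, which encodes a bromodomain subunit of a SWI/SNF remodelling complex, with 1229.8, 1419, 1342 and 1256 normalized counts in saline 1 to 4 and 1149, 1026, 1097 and 955 in ethanol 1 to 4. Its groups did not overlap, and the fold was 0.805 (95% interval 0.699 to 0.928) with a limma p of 0.00504 unadjusted and 0.997 adjusted. Mllt1, a YEATS domain reader, had a fold of 1.11 (95% interval 0.911 to 1.35). DNA methylation readers, helpers and repair genes (18 of 22 tested) had 0 higher and 2 lower and a median of -0.04. Uhrf2, a relative of the hemimethylated DNA reader Uhrf1, had a fold of 0.835 (95% interval 0.716 to 0.973) with an unadjusted limma p of 0.0240, and Kdm2b, which binds unmethylated CpG islands, a fold of 1.06 (95% interval 0.922 to 1.22).

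Cofactor supply genes had no member past the unadjusted threshold in either direction. For acetyl-CoA supply (11 of 11 tested, median -0.04), Acss1, the mitochondrial enzyme that turns acetate into acetyl-CoA, had 2463 ± 194 in the saline group and 2788 ± 243 in the ethanol group (normalized counts, SD, n = 4) and a fold of 1.13 (95% interval 0.997 to 1.28). Acss2, the enzyme of the cytosol and nucleus that does the same, was scarce at 76.1 ± 30.9 in the saline group and 51.1 ± 30.4 in the ethanol group (normalized counts, SD, n = 4), and its interval of 0.256 to 1.23 around a fold of 0.562 left room for large changes. For NAD supply, 12 of 14 genes were tested and the median was 0.04. Nmnat1 and Nmnat3 encode a nuclear and a mitochondrial enzyme of NAD formation. The folds with the smallest p on each side were 1.20 (95% interval 0.932 to 1.54) for Nmnat1 and 0.770 (0.452 to 1.31) for Nmnat3. For S-adenosylmethionine supply (12 of 14 tested, median -0.05), they were 1.13 (95% interval 0.947 to 1.36) for the folate enzyme gene Mthfd1 and 0.903 (95% interval 0.812 to 1.00) for Mat2b, the regulatory subunit of methionine adenosyltransferase. Each ethanol library was above each saline library for Nmnat1 and below each for Mat2b.

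Across the 8 libraries the 35 genes showed no common rise or fall. The mean log2 deviation of the set from the gene means lay between -0.06 in ethanol 3 and 0.05 in ethanol 1. Ethanol 4 was the lowest library for 8 of the 35 genes and the highest for 6 of the 35. Over all tested genes, it was the lowest for 14.7% and the highest for 13.3%. Ethanol 3 and saline 4 were the lowest for 7 of the 35 each, and over all tested genes for 16.0% and 11.9%. Of the 595 pairs of genes, 52.6% had a positive Pearson correlation, with a median r of 0.05, against 49.8% and a median of -0.0024 over all pairs of tested genes. These pairs share the same 8 libraries and are a description.

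**Figure D4:**
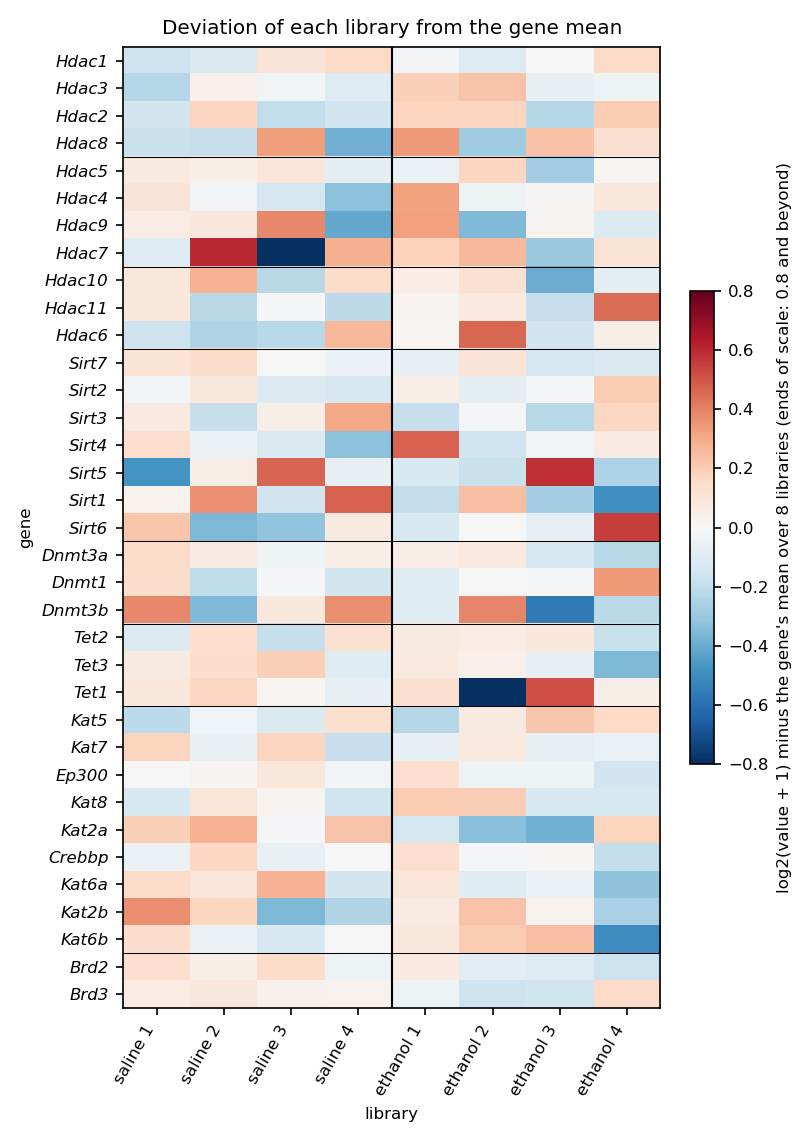
Each cell is a gene's log2(value + 1) in 1 library minus its mean over the 8 libraries (red above, blue below, colour scale ending at 0.8); genes are grouped by role and the vertical line parts saline from ethanol. No library is red or blue throughout, and Tet1 in ethanol 2 and Hdac7 in saline 3 are the deepest cells.

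Among the extremes of these 595 pairs, which were picked for their size, were Hdac4 with Sirt4 (r 0.96), Kat6a with Brd2 (0.93), Tet3 with Kat6a (0.92), Kat2a with Brd3 (0.92), Hdac1 with Kat2b (-0.96) and Kat5 with Brd2 (-0.89). For 12 pairs chosen for paralogy or a shared function, correlations over the 8 libraries were tested by exact permutation. None passed Benjamini-Hochberg adjustment over the 12, where the smallest adjusted p was 0.573 for Pearson's r and 0.935 for Spearman's rho. Ep300 and Crebbp had the highest r at 0.66 (exact permutation p 0.0729, rho 0.43 with p 0.299), and r was -0.11 without the 2 libraries farthest from the median of Ep300, ethanol 1 and ethanol 4. Hdac4 and Hdac9 had r 0.53 (exact permutation p 0.173, rho 0.33), which turned to -0.40 without saline 4 and ethanol 1. Removing the libraries farthest from a gene's median narrows its range, which can itself lower r. With any single library left out, r was 0.34 to 0.85 for Ep300 and Crebbp and 0.20 to 0.85 for Hdac4 and Hdac9. Of the other pairs, r was -0.17 for Hdac1 and Hdac2, -0.16 for Kat2a and Kat2b, 0.39 for Kat6a and Kat6b, 0.19 for Tet2 and Tet3, and 0.19 for Brd2 and Brd3, with exact permutation p-values of 0.700, 0.692, 0.355, 0.702 and 0.628. The largest negative values were -0.53 for Dnmt1 and Dnmt3a and -0.52 for Sirt1 and Sirt2 (exact permutation p 0.173 and 0.191), which turned to 0.31 and 0.28 without the 2 farthest libraries. Kat5 and Kat8 had r -0.44 (exact permutation p 0.267) with a rho of -0.67 (exact permutation p 0.0831), Sirt6 and Sirt7 had r -0.35 (exact permutation p 0.408) and Hdac5 and Hdac7 had r 0.04 (exact permutation p 0.919).

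Transcript length was set against the deviations in each library. The set holds 10 genes of at least 7000 bases (Hdac4, Hdac9, Dnmt3a, Tet1, Tet2, Tet3, Kat6a, Kat6b, Ep300 and Crebbp) and 12 under 2500. In ethanol 4 the long genes lay 0.19 below their means on the log2 scale on average and the short ones 0.07 above. In ethanol 1 the long genes lay 0.14 above their means. Over the 35 genes the correlation of the deviation with log2 length was -0.425 in ethanol 4, and between -0.193 and 0.289 in the other 7 libraries. Over 11328 tested genes it was -0.111 in ethanol 4, close to -0.095 in saline 3 and -0.082 in ethanol 3, and it was 0.109 in ethanol 1. Among the tested genes with higher mean counts it was -0.27 in ethanol 4, -0.268 in saline 3, -0.166 in ethanol 3 and 0.292 in ethanol 1. Genes of 1 library share its RNA and amplification, so these are descriptions with no test. Kat6b, Kat6a, Tet3, Tet2, Dnmt3a, Crebbp and Ep300 each had their lowest ethanol value in ethanol 4. The other long genes, Hdac4, Hdac9 and Tet1, the longest of all, had theirs in ethanol 2. The part of length in the folds of the long genes was not tested. Leaving out ethanol 4 must raise the fold of any gene whose lowest ethanol value it holds. The values that follow are for such genes only and are no test of length. On the log2 scale the fold changes without ethanol 4 were 0.18 for Kat6b, -0.11 for Kat6a, -0.06 for Tet3, 0.08 for Tet2, -0.06 for Dnmt3a, 0.03 for Crebbp and -0.0033 for Ep300, against 0.01, -0.18, -0.15, 0.02, -0.11, -0.03 and -0.05 with it.

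**Figure D5:**
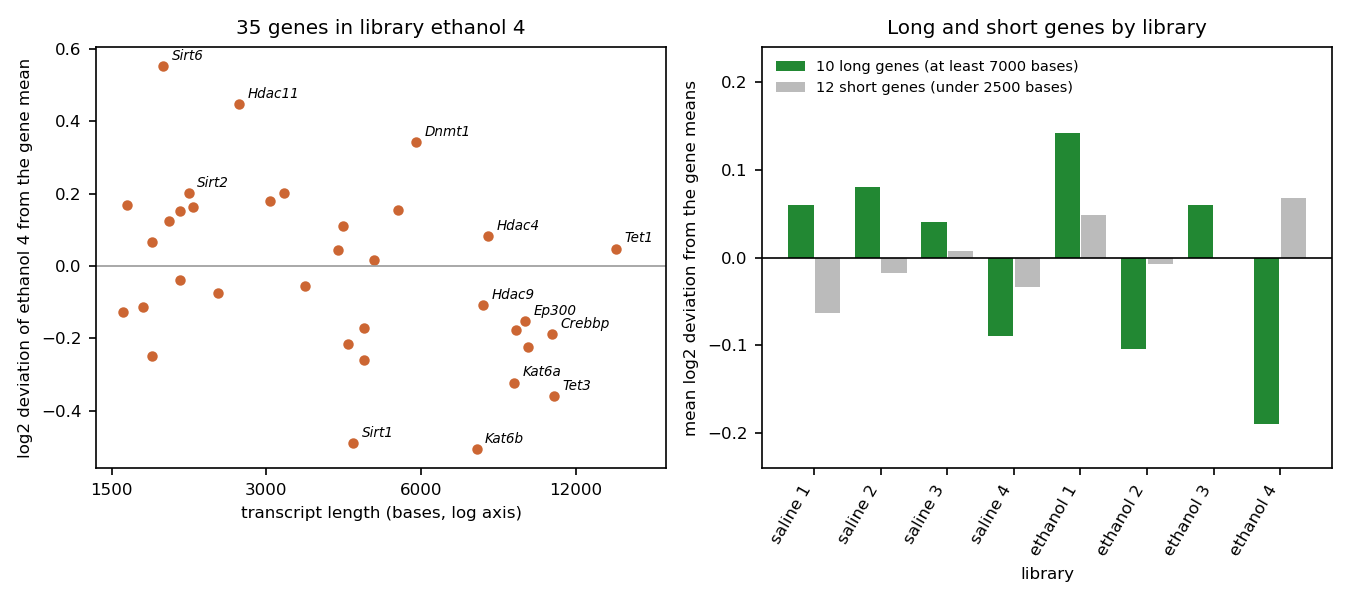
Left, the log2 deviation of each gene from its mean in library ethanol 4 against transcript length (log axis); right, the mean deviation of the 10 long and 12 short genes in each library. In ethanol 4 the long genes average -0.19 and the short genes 0.07.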

How the data were processed

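The 8 RNA-seq libraries of sorted microglia (4 saline, 4 ethanol) were grouped by their titles. Per the labels' protocols, 500 pg of total RNA per library was amplified with SMARTer Ultra Low Input chemistry, 150 pg of cDNA went into NexteraXT libraries, which do not mark strand, and paired ends of 150 nt were read. The tools named, per the submitters' processing notes, are STAR 2.7.9a, featureCounts 2.0.1 (Subread), Salmon 1.5.2, bcl2fastq 2.19.1, R 4.2.2 and DESeq2, with the build GRCm39. What each did, with which parameters and annotation, is not given in the sources used here.

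The authors deposited 1 table of signal values, which its name calls DESeq2-normalized counts. Within each library 100% of the non-zero values were whole multiples of 1 step within 1e-06, so whole reads were recovered. Reads carry no molecular identifiers, so copies made in amplification were not removed.

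Limma 3.58.1 (intensity trend, R 4.3.3) was run on log2(value + 1) for 14428 genes whose mean reached 10, two-sided, with Benjamini-Hochberg adjustment at 0.05. Folds are on that scale, where the pseudocount draws low genes toward no change. They can still be larger than those of the count models. For Hdac7 the log2 fold change was 0.13 in limma, 0.02 in DESeq2 and 0.03 in edgeR. The fit was tested on simulated counts drawn independently for each gene and library. It was thus not tested on differences that many genes of a library share. Shares of marker genes and correlations were tested by two-sided exact permutation. Alternatives were pseudocounts of 0.5 and 5, no filter, a mean of at least 50, quantile normalization, edgeR 4.0.16 and DESeq2 1.42.0 on the reads, the sample number as a block, the library-name number as a covariate, and leaving out each library. Lengths (longest transcript of the gene) are those of GENCODE for GRCm38, and promoters come from RefSeq (GRCm38.p6), both older builds than that of the table and matched by symbol.

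The genes, lists and tests were chosen with earlier results of these data known. Values in every library are given for the 3 genes with the smallest p in each direction and for the highest and lowest gene per kb in each role group, and from each pathway list the gene with the smallest p in each direction is named. Jade3 and Brd9 are also given by library.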

Additional observations from a re-analysis of the deposited data

Results flagged for a closer look

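In each gene and group, the library farthest from the other 3 was compared with the range of the 4. Its gap to the nearest of the others, as a share of that range, passed Dixon's 95% critical value in 7 of 70 groups. Chance flags about 1 in 20 groups if they are independent and normally distributed. The 70 groups come from the same 8 libraries, and the rate over all tested genes was not computed. Whether 7 of 70 is more than is usual in these libraries is therefore not known. Hdac2 had such an outlying library in both the saline and the ethanol group. Saline 2 had 965 normalized counts where the other saline libraries had 747 to 774, and ethanol 3 had 733 where the other ethanol libraries had 967 to 987. Hdac6 had 305 in saline 4 against 214 to 226 in the others. Sirt5 had 207 in ethanol 3 against 115 to 126, and Sirt6 had 151 in ethanol 4 against 94.5 to 103. Tet2 had 1631 in ethanol 4, below the 1922 to 1950.5 of the other ethanol libraries. Kat7 had 1564 in ethanol 2 against 1413 to 1425. No group difference of the genes in these 7 cases passed the test, and the causes were not tested.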

How the results depend on the processing

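Under each of the 17 alternatives 0 of the 35 genes and 0 of all tested genes passed the adjusted threshold, and 25 of the 35 kept the sign of their estimate throughout. With the sample number as a replicate block, 3 of the 35 had an unadjusted p under 0.05 (Kat2a, Kat6a and Brd2) in place of 1, while the share of all tested genes went from 3.63% to 4.47%. The deviations of same-numbered libraries correlated at 0.014 to 0.08, and not every library correlated best with its own number, so the numbers were not taken to pair the samples. With the library-name number as a covariate 5 genes did (Sirt1, Tet3, Kat2a, Kat6a and Brd2; 5.34% of all genes), the median log2 fold change of the set was -0.0449, and the estimate turned for Sirt5 (-0.0289), Tet2 (-0.0182), Kat2b (-0.0216) and Kat6b (-0.0449). Leaving out 1 library gave 0 to 3 such genes (0 without saline 2, 2 without saline 3, 3 without saline 4 or ethanol 1, where the shares of all genes were 2.99%, 4.28%, 3.83% and 4.69%) and a median between -0.0400 and 0.0161. The cause of these shifts was not tested.

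Leaving out 1 library also turned the sign of some small estimates. Their log2 fold changes ranged from -0.0774 to 0.0295 for Crebbp, -0.0400 to 0.0653 for Hdac1, -0.14 to 0.0086 for Hdac5, -0.20 to 0.35 for Hdac7, -0.20 to 0.0599 for Hdac9, -0.0853 to 0.16 for Kat2b, -0.0692 to 0.18 for Kat6b, -0.17 to 0.18 for Sirt5, -0.29 to 0.18 for Tet1 and -0.0401 to 0.0806 for Tet2. Correlations ranged from -0.0029 to 0.75 for Brd2 with Brd3, -0.84 to 0.15 for Dnmt1 with Dnmt3a, -0.28 to 0.54 for Hdac5 with Hdac7, -0.41 to 0.0311 for Kat2a with Kat2b, -0.54 to 0.64 for Kat6a with Kat6b and -0.56 to 0.58 for Tet2 with Tet3. With 4 libraries a group, intervals were wider for the genes with the fewest reads, above all Hdac7 with as few as 9.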
